A study of Mus musculus with 2 samples.

Results

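Macrophages live in pancreatic islets as resident immune cells, and 52 genes of macrophages and other myeloid cells were followed in islets that overexpress the microRNAs miR-141 and miR-200c. The genes were chosen by name, as general macrophage genes, the C1q complement subunits, Fc receptors and their adaptors, genes of tissue-resident cells, inflammatory genes, and scavenger and lipid genes. They and the lists of other genes below were chosen with earlier results of these data known. An annotated probe set with a single gene symbol was found for 51 of the 52, out of 18193 genes measured that way, and the expression of Spp1 was not analysed here. Their 91 probe sets were all listed under the current symbols.

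The 2 samples were islets of male mice aged 6 weeks, 1 array for each genotype. One sample is labelled as overexpression of miR-141/200c and the other as a Bl6 control, and the islets of neither received a treatment after extraction. Beta cells are entered as the source and islets as the tissue. The transgenic sample is titled Ripmir, a name the labels do not spell out and which may refer to the promoter of the transgene. They do not otherwise give that promoter, the number of lines, or how many mice a sample pooled. The values are log2 RMA values, the scale on which Affymetrix arrays are background corrected, normalized and summarised per probe set. With 1 array for each genotype no value has a replicate error, no test was possible and none of the differences could be checked in a second sample. Differences below are transgenic minus control log2 values, and higher and lower describe these 2 arrays.

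Islet macrophages sit close to the vessels and the beta cells, take up cell debris and granule material, and depend on signalling through the receptor encoded by Csf1r. Macrophages arise from embryonic precursors or from blood monocytes, and genes such as F13a1, Mrc1, Lyve1 and Folr2 are commonly used to mark tissue-resident cells. The C1q proteins start the classical complement pathway and are made largely by macrophages. Many of the genes are not restricted to macrophages: Ptprc, Cd52 and Cd53 mark white blood cells in general, Lyve1 also marks lymphatic vessels, and Apoe is made by many cells.

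The transgene encodes microRNAs of the miR-200 family, which repress messenger RNAs through base pairing of their seed, bases 2 to 8. With 1 array for each genotype, an effect of the transgene cannot be told apart from differences between animals, islet preparations or arrays. The mature 3p sequences are shown with the seed in capitals because the genotype label names these microRNAs (RefSeq, GRCm38.p6, miR-141-3p at chr6:124717917-124717938 and miR-200c-3p at chr6:124718324-124718346, both on the minus strand). The seeds differ at 1 base.
miR-141-3p: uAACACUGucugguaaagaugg
miR-200c-3p: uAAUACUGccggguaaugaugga

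The transcription factor PU.1, encoded by Spi1, is central to macrophage gene expression, and its part in the differences was not tested. The promoters of the 7 kept genes that were at least 2-fold higher in the transgenic islets are shown next. Each is a RefSeq window of GRCm38.p6 from 250 bases before to 50 bases after a gene's start, the first listed where a gene has several, and the text in capitals is a match to GAGGAA, a purine-rich core bound by PU.1, or to its reverse complement, extended where it is part of GAGGAAGT. F13a1 lies at chr13:37050195-37050494, minus strand, C1qb at chr4:136886151-136886450, minus strand, C1qc at chr4:136892865-136893164, minus strand, Clec7a at chr6:129472730-129473029, minus strand, Retnla at chr16:48842359-48842658, plus strand, Apoe at chr7:19699139-19699438, minus strand, and Mpeg1 at chr19:12460520-12460819, plus strand.
F13a1: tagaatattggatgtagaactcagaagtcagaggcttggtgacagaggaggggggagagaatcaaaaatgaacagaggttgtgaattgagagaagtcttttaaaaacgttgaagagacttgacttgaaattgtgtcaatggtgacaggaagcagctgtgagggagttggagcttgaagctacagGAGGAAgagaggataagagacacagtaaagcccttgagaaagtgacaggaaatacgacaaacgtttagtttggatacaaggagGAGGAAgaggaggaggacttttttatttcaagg
C1qb: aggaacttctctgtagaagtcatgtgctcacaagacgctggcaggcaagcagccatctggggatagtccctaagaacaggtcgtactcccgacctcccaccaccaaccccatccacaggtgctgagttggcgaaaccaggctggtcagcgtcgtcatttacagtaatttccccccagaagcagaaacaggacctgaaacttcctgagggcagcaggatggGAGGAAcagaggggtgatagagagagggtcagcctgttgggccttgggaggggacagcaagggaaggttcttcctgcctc
C1qc: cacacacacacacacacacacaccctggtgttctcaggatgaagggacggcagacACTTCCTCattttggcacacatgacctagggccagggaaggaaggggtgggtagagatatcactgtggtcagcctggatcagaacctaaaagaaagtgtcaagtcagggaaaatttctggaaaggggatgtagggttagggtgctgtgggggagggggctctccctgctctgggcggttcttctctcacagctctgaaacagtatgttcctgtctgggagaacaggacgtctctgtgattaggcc
Clec7a: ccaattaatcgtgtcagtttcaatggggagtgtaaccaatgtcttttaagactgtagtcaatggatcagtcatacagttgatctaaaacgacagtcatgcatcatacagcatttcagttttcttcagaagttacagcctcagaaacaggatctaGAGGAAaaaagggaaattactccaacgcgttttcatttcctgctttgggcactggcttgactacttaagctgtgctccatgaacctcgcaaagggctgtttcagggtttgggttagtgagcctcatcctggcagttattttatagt
Retnla: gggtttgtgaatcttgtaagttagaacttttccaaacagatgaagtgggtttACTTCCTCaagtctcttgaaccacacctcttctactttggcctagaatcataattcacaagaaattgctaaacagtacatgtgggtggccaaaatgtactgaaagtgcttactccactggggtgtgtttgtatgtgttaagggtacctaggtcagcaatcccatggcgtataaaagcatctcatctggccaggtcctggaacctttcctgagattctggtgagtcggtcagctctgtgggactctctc
Apoe: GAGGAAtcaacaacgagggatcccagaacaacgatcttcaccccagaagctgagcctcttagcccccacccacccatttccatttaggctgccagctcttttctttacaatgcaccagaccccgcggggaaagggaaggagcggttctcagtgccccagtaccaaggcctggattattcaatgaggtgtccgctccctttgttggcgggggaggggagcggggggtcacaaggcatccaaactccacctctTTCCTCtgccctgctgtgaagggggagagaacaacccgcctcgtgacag
Mpeg1: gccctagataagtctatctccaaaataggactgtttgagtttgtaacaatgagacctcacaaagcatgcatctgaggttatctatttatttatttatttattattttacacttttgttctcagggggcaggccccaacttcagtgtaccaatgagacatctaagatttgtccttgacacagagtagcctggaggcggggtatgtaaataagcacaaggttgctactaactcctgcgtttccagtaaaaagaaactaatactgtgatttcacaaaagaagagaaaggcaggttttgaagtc

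In these windows the core stood at positions -66 and 17 of F13a1, counted in bases from the start of the gene at 0, at -30 of C1qb and at -96 of Clec7a. In C1qc and Retnla it lay on the opposite strand as part of the longer GAGGAAGT, from -195 and -198. The window of Apoe held the core 2 times, at -250 and, on the opposite strand, at 1, and that of Mpeg1 held no match. Windows were found for 37 of the 52 genes, Spp1 among them. The core was in 23 of these 37 (62.2%), against 28.3% of 27025 gene windows of the same length, and GAGGAAGT, counted within the core as well, was in 6 of 37 (16.2%) against 3.28%. Both strands were searched. The windows were not limited to genes above the floor or to genes that were higher. The core was also in windows of genes with a negative difference, such as Cd53 and Itgam. A match describes the letters in the window and is not a measured binding site.

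For each gene the probe set with the highest mean value was used. A gene was kept when that probe set reached 5.76, the median of all probe set values and the floor used here, on at least 1 array. Of the 51 genes 37 were kept and 14 stayed below the floor on both arrays. For 2 of the 37, Retnla and Gpnmb, only the transgenic value reached it. A gene kept through its high value alone had to differ, so counts and medians are also given over the 35 genes at the floor on both arrays, a choice made after seeing the data. Since RMA gives no detection call, a value below the floor does not show that a gene is absent.

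Of the 37 kept genes 29 had a positive difference and 8 a negative one, with a median difference of 0.66 on the log2 scale. Over all 12143 kept genes the median was 0.029 and 54.2% were positive. At the size rule of 2-fold, 7 of the 37 were higher in the transgenic islets, F13a1, Retnla, Clec7a, Apoe, Mpeg1, C1qb and C1qc, where the share over all kept genes was 2.51%. None was 2-fold lower, where the share over all genes was 0.511%. At 1.5-fold, 20 of 37 were higher against a background of 7.73%, and none was lower against 3.14%. Over the 35 genes at the floor on both arrays, 27 were positive and 6 at least 2-fold higher, with a median of 0.63. The matching shares over the 11487 genes at the floor on both arrays were not computed. The shares given above also include 417 genes kept through the transgenic value alone and 239 through the control value alone. In bulk islet RNA, more cells of a type and more RNA in each cell cannot be told apart.

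**Figure D1:**
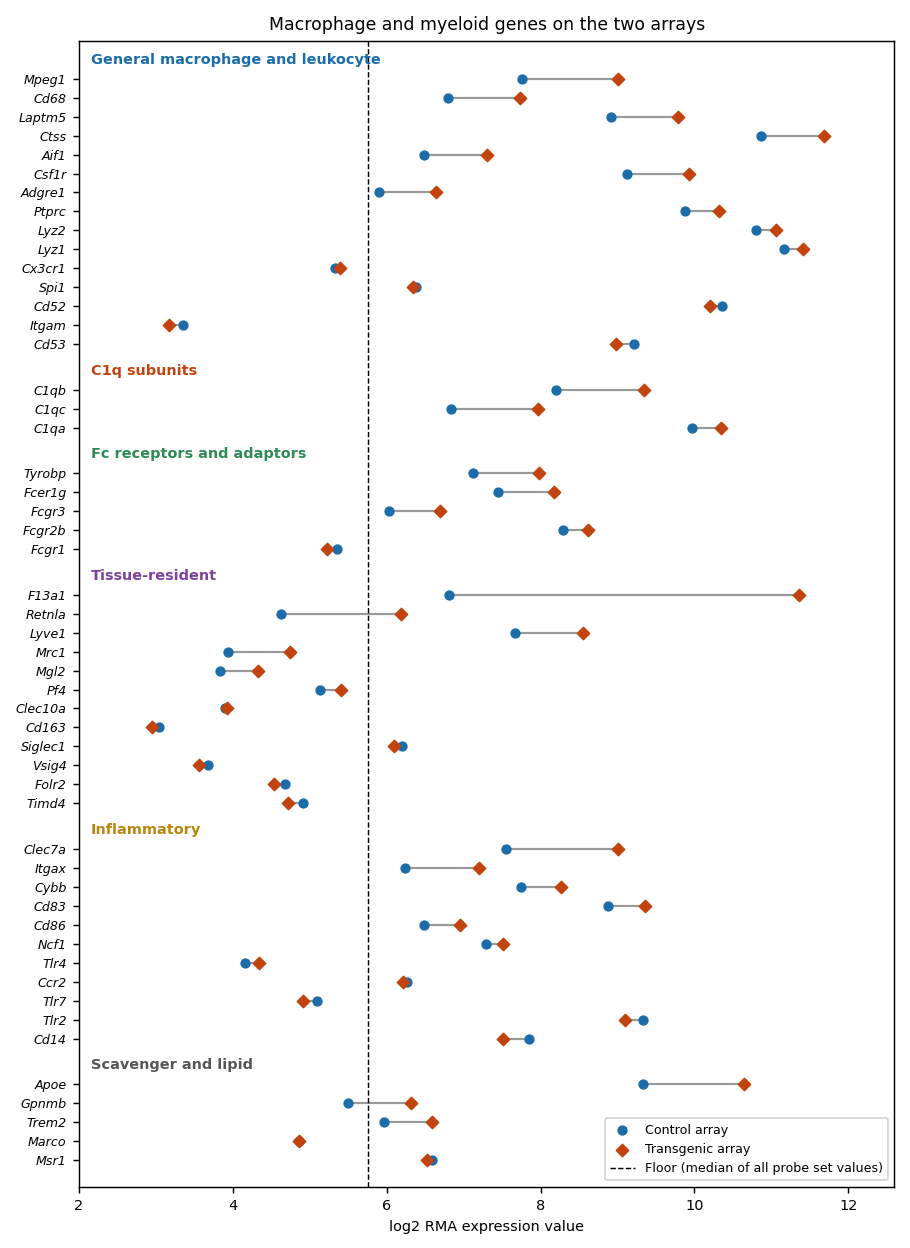
Log2 RMA values (x axis) of the 51 genes with a probe set, on the control array (blue circles) and the transgenic array (orange diamonds), grouped by role and ordered by difference. The dashed line is the floor of 5.76. F13a1 spans from 6.81 to 11.36, while most other resident-cell genes lie left of the floor on both arrays.

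**Figure D2:**
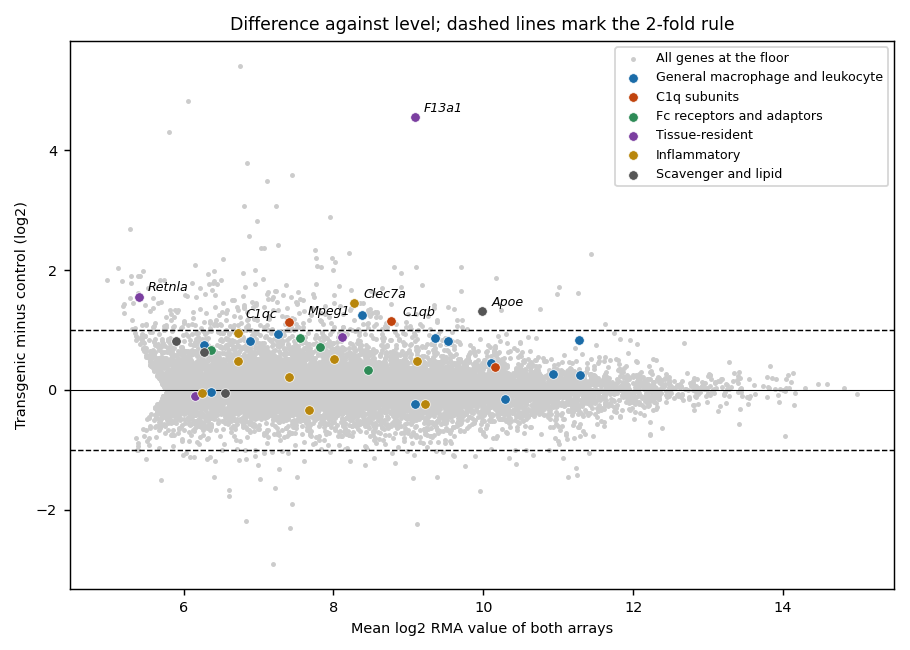
Transgenic minus control log2 difference (y axis) against the mean log2 value of both arrays (x axis) for the 12143 kept genes (grey) and the 37 kept macrophage and myeloid genes (coloured by role). The dashed lines mark 2-fold, and the 7 named genes lie above the upper one.

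The general macrophage genes were mostly higher in the transgenic islets. Mpeg1, which encodes the pore-forming protein perforin-2, read 9.005 on the transgenic array and 7.76 on the control array, 2.37-fold higher. Cd68, a lysosomal glycoprotein of macrophages, read 7.73 and 6.80, a difference of 0.94. Laptm5, a lysosomal membrane protein of blood cells, read 9.79 and 8.92, a difference of 0.87, and 0.40 without probe sets that can match several transcripts. These were the 3 furthest of the 13 kept genes of this group, of which 10 were positive and only Mpeg1 passed the 2-fold rule, with a median of 0.75.

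Csf1r, the receptor for the macrophage growth factors, read 9.93 with the transgene and 9.12 without it, a difference of 0.81, against 0.77 and 0.04 from 2 further probe sets. Adgre1, a classical surface antigen of macrophages, read 6.64 and 5.90, a difference of 0.75, with the control value just above the floor. The protease gene Ctss, of the cathepsin family that processes antigens, read 11.69 and 10.86 (0.83), and Aif1, the cytoskeletal protein Iba1, 7.30 and 6.48 (0.82). With the probe set used, each of these lay between 1.5-fold and 2-fold on the higher side.

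Ptprc, the CD45 phosphatase of all white blood cells, read 10.32 and 9.87, a difference of 0.45, and 0.96 with its probe sets averaged. Cd52 and Cd53, surface proteins of lymphocytes and myeloid cells, had differences of -0.15 and -0.23. Spi1 itself read 6.34 and 6.38. The lysozyme genes Lyz1 and Lyz2, neighbours in the genome and near-identical in sequence, had differences of 0.25 and 0.26, and their probe sets may share signal. The values are therefore uncertain as to which of the pair they report. The only Lyz1 probe set outside the kinds that can match several transcripts was below the floor on both arrays, at -0.34. With its probe sets averaged, Lyz1 gave 0.076. Itgam, the CD11b integrin, and Cx3cr1, the fractalkine receptor, were below the floor on both arrays, with Itgam at 3.17 and 3.35 and Cx3cr1 at 5.39 and 5.32.

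All 3 C1q subunits were higher in the transgenic islets, and 2 of them at least 2-fold. C1qb read 9.35 on the transgenic array and 8.20 on the control array, 2.21-fold higher. C1qc read 7.97 and 6.83, 2.20-fold higher. C1qa read 10.35 and 9.97, a difference of 0.38. The 3 chains assemble into 1 protein and their genes lie next to each other, with C1qc between C1qa and C1qb, yet the difference of C1qa was smaller than those of the other 2 on these arrays. Each of C1qa and C1qc had 1 probe set, whereas the 3 of C1qb gave folds of 2.21, 2.82 and 1.68. All 3 were above the 1.30-fold of C1qa.

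Elsewhere in the complement system most kept genes were not higher in the transgenic islets. Of 13 further complement genes 6 were kept, 2 with a positive difference, with a median of -0.053. C1s1, a serine protease of the classical pathway, read 7.12 with the transgene and 6.31 without it, a difference of 0.81. Cfp, which encodes properdin of the alternative pathway, read 6.78 and 7.28, a difference of -0.49. None passed 2-fold.

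The Fc receptors bind antibodies, and Fcer1g and Tyrobp encode the adaptors through which several myeloid receptors signal. All 4 kept genes of this group were higher in the transgenic islets, with a median of 0.69 and none past 2-fold. Tyrobp, also called DAP12, read 7.98 on the transgenic array and 7.12 on the control array, a difference of 0.86. Fcer1g, the common Fc receptor gamma chain, read 8.18 and 7.45, a difference of 0.72. The activating receptor gene Fcgr3 read 6.69 and 6.03, a difference of 0.66. The inhibitory receptor gene Fcgr2b, also made by B cells, had a smaller difference of 0.33, and 3 further probe sets above the floor gave 0.34, 0.47 and 0.53. Fcgr1, the high-affinity receptor, was below the floor on both arrays, at 5.22 and 5.35.

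The genes of tissue-resident cells did not move as 1 group. F13a1, the A subunit of coagulation factor XIII, read 11.36 with the transgene and 6.81 without it. The transgenic value was 23.6-fold higher, the third highest difference of all 12143 kept genes, and both values were above the floor. F13a1 had a single probe set, so no second one could be compared with it. Lyve1, a hyaluronan receptor of resident macrophages and lymphatic vessels, read 8.55 and 7.67, a difference of 0.88, and a second probe set 0.47. Mrc1, the mannose receptor, read 4.74 and 3.93, and Folr2, a folate receptor, 4.54 and 4.68. Of the 4 genes commonly used together for resident cells, F13a1 and Lyve1 were thus above the floor and higher in the transgenic islets, while Mrc1 and Folr2 were below the floor on both arrays.

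Retnla, a secreted protein of alternatively activated macrophages, read 6.18 on the transgenic array and 4.63 on the control array, 2.94-fold higher. The control value lay under the floor, where array background limits a fold, and the gene was kept through the transgenic value alone. Siglec1, a sialic acid receptor, read 6.10 and 6.20, a difference of -0.10. The remaining 6 resident-cell genes were below the floor on both arrays. Among them Mgl2 and Clec10a, neighbouring lectin genes, had differences of 0.49 and 0.027, and Pf4, a chemokine of platelets and macrophages, 0.27. The scavenger receptor gene Cd163, the phosphatidylserine receptor gene Timd4 and the complement receptor gene Vsig4 had differences of -0.092, -0.20 and -0.12. The median over the 4 kept genes was 1.22. It was 0.88 over the 3 at the floor on both arrays, without Retnla, and 0.15 over all 12 with no floor.

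F13a1 and Pf4 are also made by platelets and their precursors. Of 10 listed platelet and megakaryocyte genes 4 were kept, with a median difference of 0.043 and none past 2-fold. Tubb1, a tubulin of platelets, stood at -0.30 and Itga2b, the platelet integrin, at 0.18. The summed linear values of the 8 with a probe set were 501 and 499, transgenic first, and 4 of the 8 were below the floor. The part of platelets in the difference of F13a1 was not tested.

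The inflammatory genes had a median of 0.48 over 9 kept genes, of which 6 were positive. Clec7a, the beta-glucan receptor dectin-1, read 9.001 on the transgenic array and 7.55 on the control array, 2.74-fold higher, and alone passed the 2-fold rule. Itgax, the CD11c integrin, read 7.20 and 6.24, a difference of 0.96, just under the rule. Cybb, the catalytic subunit of the phagocyte oxidase, read 8.26 and 7.75, a difference of 0.51, and its cytosolic partner Ncf1 0.22. The other kept genes of the group lay under 1.5-fold.

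The costimulatory genes Cd83 and Cd86 had differences of 0.48 and 0.48, and the other probe set of Cd86 at the floor had the opposite sign, at -0.32. Both kept sensors of bacterial products were on the other side of 0. Cd14, the lipopolysaccharide co-receptor, read 7.51 with the transgene and 7.85 without it, a difference of -0.34. Tlr2, a receptor for bacterial lipoproteins, read 9.10 and 9.33, a difference of -0.24. Ccr2, the chemokine receptor of blood monocytes, read 6.21 and 6.27. Tlr4 and Tlr7, receptors for lipopolysaccharide and single-stranded RNA, were below the floor on both arrays, at 0.18 and -0.19.

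A further list held cytokines, chemokines, enzymes and other products of activated myeloid cells. Of its 14 genes 8 were kept, 3 positive and 5 negative, with a median of -0.21 and none past 2-fold. Mmp12, the macrophage elastase, read 7.40 on the transgenic array and 6.54 on the control array, a difference of 0.86. Cxcl2, a chemokine that draws neutrophils, read 7.13 and 7.84, a difference of -0.71.

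Among scavenger and lipid genes 3 of 4 kept ones were higher, with a median of 0.73, and 2 of the 3 at the floor on both arrays, with a median of 0.63. Apoe, which carries cholesterol and other lipids, read 10.64 with the transgene and 9.33 without it, 2.48-fold higher. Gpnmb, a glycoprotein of lipid-laden macrophages, read 6.31 and 5.49, a difference of 0.82 that the background limits, since the control value was below the floor. Trem2, a lipid receptor that signals through Tyrobp, read 6.59 and 5.96, a difference of 0.63, while a second probe set below the floor gave -0.074 and the average of both 0.28. Msr1, the class A scavenger receptor, stood at -0.060, and its 3 other probe sets gave 0.59, -0.039 and -0.065, only the first of them at the floor. Marco, a related scavenger receptor, was below the floor at 4.86 on both arrays.

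**Figure D3:**
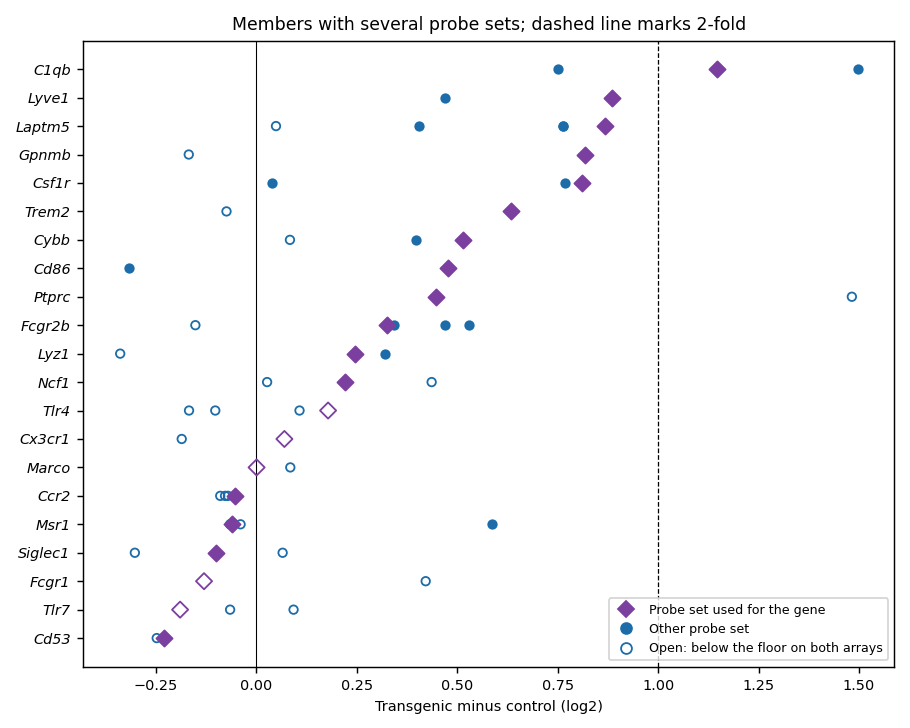
Transgenic minus control log2 difference (x axis) of each probe set of the 21 genes with more than 1. Diamonds mark the probe set used for the gene, circles the others, and open symbols those below the floor on both arrays. The probe sets of C1qb and Laptm5 all lie right of 0, whereas those of Cd86 and Msr1 fall on both sides.

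Where a kept gene had further probe sets at the floor, 13 of these 15 had the same sign as the one used, and the exceptions were those of Cd86 and Msr1. Over the 9 genes with several probe sets at the floor, the differences of a gene's probe sets spanned a median of 0.46, against 0.28 over 5180 such genes on the whole array. Cd86 spanned the most, 0.79, and the 3 probe sets of Csf1r gave 0.81, 0.77 and 0.04. A second probe set of Ptprc, below the floor on both arrays, gave 1.48 where the one used gave 0.45. The probe sets measure 1 RNA sample, so this spread is between probes and not between animals.

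Further genes of macrophages were examined in lists made by name, with earlier results of these data known. Of 34 other macrophage genes 18 were kept, with 13 positive, 3 at least 2-fold higher and none lower, but a median of 0.098. Lgals3, the lectin galectin-3, read 10.03 on the transgenic array and 8.65 on the control array, a difference of 1.37. Csf2rb, the shared beta chain of the receptors for GM-CSF and interleukin-3, read 7.99 and 6.78, a difference of 1.21. The third gene past 2-fold, Ms4a6d, stood at 1.003 with a control value below the floor, and was named after its value was seen. The median of this list was thus well below that of the 37 genes above.

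Of 22 genes of myeloid signalling 17 were kept and 14 were positive, with a median of 0.20. Hcls1, a cortactin-related protein of blood cells, stood at 1.14 with a control value below the floor, and Cyba, the membrane partner of Cybb in the phagocyte oxidase, at 0.81. Of 10 transcription factors 8 were kept, with a median of 0.17, Irf8 at 0.76 and Ikzf1 at 0.56. The genes that present antigen on MHC class II are made by macrophages, dendritic cells and B cells. With the probe set used, all 6 kept ones were positive, with a median of 0.40, and none passed 2-fold. Among them Ciita, their transcriptional activator, stood at 0.68 and Cd74, the invariant chain, at 0.56. H2-Aa stood at 0.15, and of its 3 other probe sets at the floor only 1 had the same sign.

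The growth factors and attractants of macrophages differed little. Of 12 listed genes 5 were kept, with a median of 0.010 and none past 1.5-fold. Csf1, the main macrophage growth factor, read 8.46 with the transgene and 8.64 without it, and Cxcl12, a chemokine, 6.51 and 6.26. Ccl2, which draws monocytes through Ccr2, read 6.93 and 6.78, and Il34, the other ligand of Csf1r, was below the floor on both arrays.

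**Figure D4:**
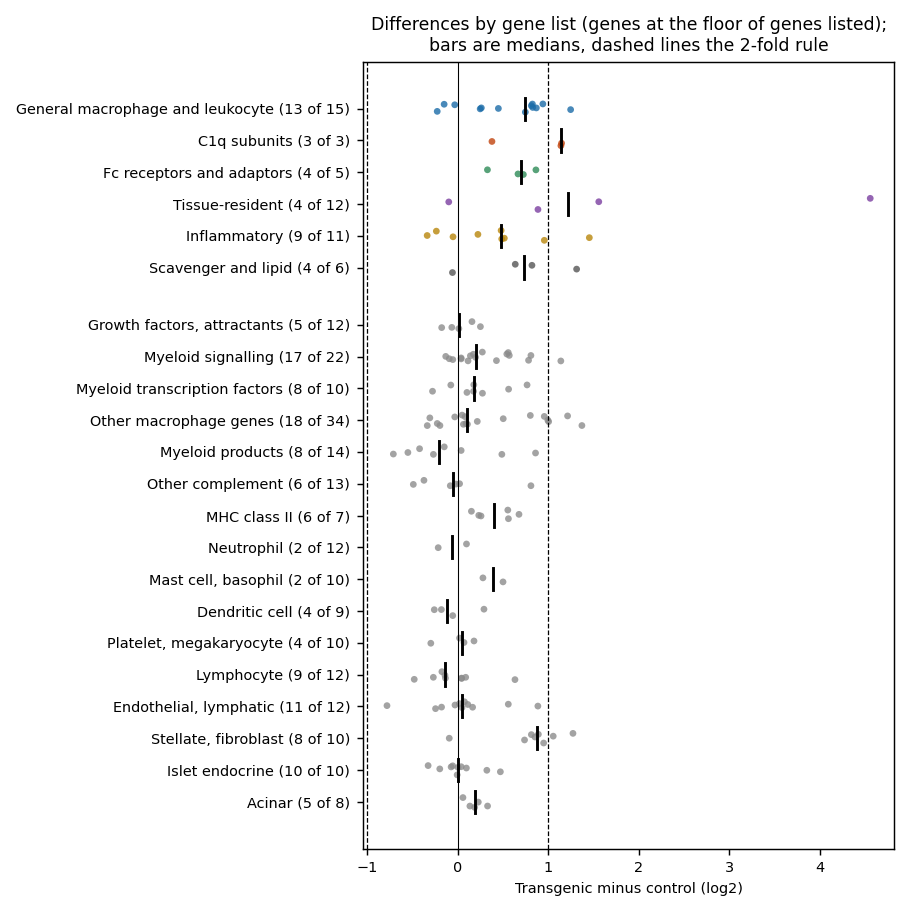
Transgenic minus control log2 difference (x axis) of each kept gene in the 6 role groups (coloured) and 16 further lists (grey), with the number kept of the number listed. Black bars are medians and dashed lines mark 2-fold. The medians of the 6 macrophage and myeloid groups and of the stellate and fibroblast list lie to the right of 0, although 8 of the 37 genes and Dcn are negative. Several other lists, such as MHC class II, mast cell and acinar, also have medians right of 0. Others, such as lymphocyte and myeloid products, have medians left of 0.

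Other cell types in the islet preparations were compared with the same rule. Of 10 stellate cell and fibroblast genes 8 were kept, 7 of them higher and 2 at least 2-fold, with a median of 0.87. Over all kept genes 54.2% were higher and 2.51% at least 2-fold higher. Lum was kept through the transgenic value alone, so its difference had to be positive. The summed linear values of the list were 7346 on the transgenic array and 3967 on the control array. Rgs5, with log2 values of 12.21 and 11.26, was the largest term on both. Col1a2 stood at 1.27 and Postn at 1.05. The part of these cells in the macrophage gene differences was not tested. Endothelial and lymphatic genes had a median of 0.045 over 11, with Pecam1 at 0.88 and Prox1 at -0.78. Prox1 is a factor of lymphatic vessels and of some endocrine cells. The part of lymphatic vessels in the 0.88 of Lyve1 was not tested.

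Lymphocyte genes had a median of -0.14 over 9 kept genes, with Cd2 at 0.63 and Cd3d at -0.48, and summed linear values of 2437 and 2508. Of the neutrophil list 2 of 12 genes were kept, Elane at -0.22 and Mmp9 at 0.095, and S100a8 and S100a9, which mark neutrophils, were below the floor on both arrays. Of the mast cell list 2 of 10 were kept, Kit at 0.50 and Hdc at 0.28. Dendritic cell genes had a median of -0.12 over 4, with Bst2 at 0.29 and Ccr7 at -0.26. The islet endocrine list had a median of -0.0037 over 10, with Chgb at 0.47 and Slc2a2 at -0.33, and the acinar list 0.19 over 5, with Spink1 at 0.33 and Cel at 0.23. Of the 15 general macrophage genes 13 were at the floor on both arrays, among them Csf1r, Adgre1 and Cd68, as were the 3 C1q genes. Of all 18193 genes 11487 were at the floor on both arrays. Itgam, Cx3cr1, Fcgr1, Mrc1, Folr2 and Cd163, also used as macrophage markers, were below it on both.

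The arrays differed in their control RNAs. The median difference was 1.51 over 24 poly-A spike probe sets, all of them positive, and 0.40 over 18 hybridisation controls. The part of this in the macrophage gene differences was not tested.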

How the data were processed

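Total RNA of islets was labelled with biotin and hybridised to Affymetrix arrays, 1 per genotype. The deposited table holds log2 values for each probe set, which the authors made with RMA in Affymetrix Expression Console, per the submitters' processing notes. Their versions were not given in the sources used here. Groups follow the genotype label. The number of arrays limits the precision.

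Of 45101 probe sets 64 were controls, 34945 had 1 gene symbol, 932 several and 9160 none in the platform's annotation table. Symbols were updated by Entrez identifier to the RefSeq table of GRCm38.p6, and array files name no build. A gene took its highest probe set, was kept at the floor of 5.76 (the 50th percentile of all values) on at least 1 array, and was past the size rule at a log2 difference of 1. No test was run. The script was tested on simulated data. The members, the role groups and the 16 lists of 205 other genes were chosen with earlier results of these data known. Named were all members past the rule, the 3 furthest of each role group, and the 2 furthest of each other list. Other members are accounted for. Alternatives were the mean over probe sets, no _s, _x and _a probe sets, no floor or one at the 75th percentile, a lowess trend (span 0.3) subtracted, a second quantile normalization and a 1.5-fold rule. The floor on both arrays was an alternative chosen after seeing the data. The planned comparison of protein sequences was not run. Python 3.11.15, numpy 2.4.6, pandas 2.3.3 and statsmodels 0.14.6 were used.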

Additional observations from a re-analysis of the deposited data

How the results depend on the processing

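No paired analysis was possible because each genotype has 1 array. The 2-fold count of 7 was 6 or 7 under every normalization, floor and probe set choice tried, with none lower, and 20 at 1.5-fold. Apoe dropped out without the _s, _x and _a probe sets, which include its only one, and Retnla with the floor at the 75th percentile or on both arrays. The median over kept genes ran from 0.45 with no floor (51 genes) to 0.72 with the stricter floor (23 genes), and was 0.65 without F13a1. No gene changed sign in a setting that kept it. With probe sets averaged, Msr1, Ccr2, Ncf1, Siglec1 and Gpnmb were below the floor, and the averaged difference of Msr1 was 0.11. Averaging moved Cd86 to 0.081, Laptm5 to 0.57, Ptprc to 0.96 and Trem2 to 0.28. Group medians that moved by over 1.5 times were as follows. Without the _s, _x and _a probe sets, that of the general macrophage genes was 0.40 (9 genes) and that of the scavenger and lipid genes 0.38 (2). With no floor, the general macrophage genes gave 0.45 (15), the resident-cell genes 0.15 (12) and the inflammatory genes 0.22 (11). With the stricter floor, the general macrophage genes gave 0.45 (9), the resident-cell genes 2.72 (2) and the scavenger and lipid genes 1.31 (1). The order of the group medians changed between settings. Each of these settings changed which genes or probe sets were counted. Signal near the floor limits Retnla, Gpnmb and Adgre1.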

Other observations

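Among macrophage genes not described above, Itgb2, the beta chain that pairs with Itgam and Itgax, read 7.39 with the transgene and 6.39 without it, a difference of 0.99. Ms4a7, a macrophage membrane protein, read 8.55 and 7.60, a difference of 0.95, and Gas6, a ligand of receptors that clear dying cells, 7.87 and 7.37, a difference of 0.50. All were above the floor on both arrays, and they were named after their values were seen. They belong to the list of 34 other macrophage genes, whose median was 0.098. Of its 18 kept genes 5 were negative, with Cd48 at -0.34 and Lst1 at -0.31 the furthest.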
